A study of Mus musculus with 9 samples.

Results

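The genes described here build the neuromuscular junction, the synapse at which a motor nerve drives a skeletal muscle fibre. They are Lrp4, Musk, Dok7 and Rapsn, which assemble the synapse, Chrna1, Chrnb1, Chrnd and Chrne, which encode the subunits of the adult acetylcholine receptor, and Ache and Colq, which encode the enzyme of the synaptic cleft and its anchor. The 10 genes were chosen by name, and each matched 1 of 53379 gene IDs in the count tables. All 10 passed the filter on low counts, which kept 17478 genes.

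Whole knee joints of male C57BL/6 mice were profiled by RNA sequencing in a surgical model of osteoarthritis, with 3 groups and 3 libraries per group, 9 in all. Non surgery joints had no operation, and the sources used here do not give the age of these mice. Luc joints had the anterior cruciate ligament cut (ACLT) at 8 weeks of age, received a lentivirus expressing Luc in the joint cavity 1 week later, and were collected 8 weeks after the virus. PC2 joints were treated in the same way with a lentivirus expressing PC2. Luc and PC2 joints thus share the operation and a viral injection, which Non surgery joints lack, so surgery and virus cannot be told apart in a comparison with Non surgery. The RNA of a group was mixed and measured as 3 technical repeats, so every p-value below measures only technical spread and no difference between mice, and the sources used here do not say how many mice a mixture held. Library totals over genes were 17835989 to 19004316 counts.

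At the junction, agrin released by the nerve binds the muscle receptor LRP4, which activates the receptor kinase MuSK. The adaptor DOK7 keeps MuSK active inside the fibre, and rapsyn gathers acetylcholine receptors into dense clusters beneath the nerve ending. Nuclei under the synapse transcribe several of these genes far more than other nuclei of the fibre, and the collagen tail ColQ fixes acetylcholinesterase in the cleft, where it ends each signal by breaking down acetylcholine.

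Of the 5 genes that fell at least 2-fold in both comparisons with Non surgery, the promoter table held Musk, Chrna1, Chrne and Dok7, and the 250 bases before their first listed start are shown because synaptic transcription of this family is known to run through short promoter motifs. The sequences are from RefSeq (GRCm38.p6), 5′ to 3′ on the gene's strand, and 6 of the 10 genes were matched; Chrnd, Lrp4, Colq and Rapsn were not. Capitals mark the N-box CCGGAA, bound by GABP, and the E-box CAGCTG, bound by myogenic factors such as MyoD and myogenin, both searched on both strands; the 2 motifs did not overlap.
Musk (chr4:58285712-58285961, plus strand): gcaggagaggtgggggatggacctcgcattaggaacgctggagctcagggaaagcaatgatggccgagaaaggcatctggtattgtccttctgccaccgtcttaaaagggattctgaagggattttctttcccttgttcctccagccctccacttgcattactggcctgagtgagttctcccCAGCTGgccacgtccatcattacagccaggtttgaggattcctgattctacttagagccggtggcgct
Chrna1 (chr2:73580339-73580588, minus strand): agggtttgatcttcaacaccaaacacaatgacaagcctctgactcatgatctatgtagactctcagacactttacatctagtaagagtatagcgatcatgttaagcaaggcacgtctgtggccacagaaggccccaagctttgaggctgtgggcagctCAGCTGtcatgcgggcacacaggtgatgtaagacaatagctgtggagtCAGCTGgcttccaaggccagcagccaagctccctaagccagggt
Chrne (chr11:70619195-70619444, minus strand): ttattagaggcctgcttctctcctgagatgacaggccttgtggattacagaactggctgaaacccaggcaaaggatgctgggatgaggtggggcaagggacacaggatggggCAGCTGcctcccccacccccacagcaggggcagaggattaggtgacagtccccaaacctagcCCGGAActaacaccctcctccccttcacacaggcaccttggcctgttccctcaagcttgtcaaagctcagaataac
Dok7 (chr5:35056516-35056765, plus strand): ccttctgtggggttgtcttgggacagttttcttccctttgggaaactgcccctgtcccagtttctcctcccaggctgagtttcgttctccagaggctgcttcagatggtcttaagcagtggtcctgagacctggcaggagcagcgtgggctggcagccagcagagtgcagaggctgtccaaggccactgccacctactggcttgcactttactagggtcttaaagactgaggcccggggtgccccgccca
The Chrne window held an N-box 76 bases and an E-box 138 bases before the start, a pair found in 1.29% of 32851 promoter windows of this length. The Musk window held 1 E-box, 68 bases before the start, and the Chrna1 window held 2, at 92 and 44 bases. Over all windows 12% held the N-box and 13% the E-box. No match to these 2 motifs was found in the windows of Dok7, Chrnb1 and Ache. Only the CAGCTG form of the E-box was searched, so other forms of it were not counted in any window.

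In operated joints with the control virus, 9 of the 10 genes fell and Lrp4 rose (edgeR's quasi-likelihood test with Benjamini-Hochberg adjustment), where 58.8% of all genes tested passed the same test, 31.1% higher and 27.7% lower. The 3 Luc libraries lay wholly below the 3 Non surgery libraries for the same 9 genes and wholly above for Lrp4, against 29.8% and 33.1% of all genes. Musk, Chrnd, Dok7, Chrna1 and Chrne fell at least 2-fold, as did 6.32% of all genes, and none rose 2-fold, as 9.43% of all genes did. The median log2 fold change of the 10 genes was -1.25, and that of all genes 0.025. Relative to transcripts of fast muscle fibres (the summed counts of 18 fast fibre genes taken as the library size, a scale described with the muscle lists), the directions of Chrnb1, Ache, Colq and Rapsn reversed.

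**Figure D1:**
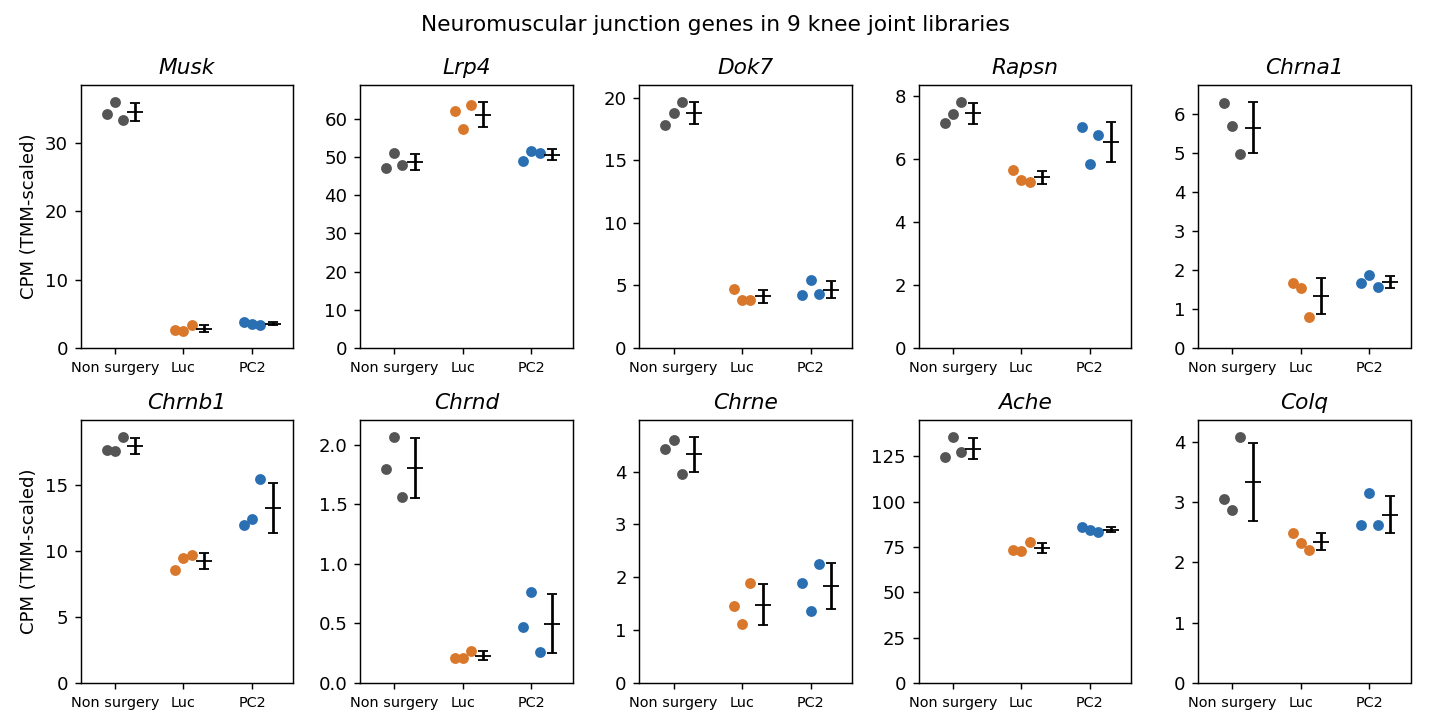
Level of each gene in CPM (read counts scaled to a common library total, with TMM factors) in the 9 libraries, with the mean and SD of each group beside the points. The Non surgery libraries lie above the Luc libraries for 9 genes and below them for Lrp4; scaled to fast muscle transcripts, the order turns for Chrnb1, Ache, Colq and Rapsn.

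Musk (chromosome 4, 58285960 to 58374303, GRCm38, plus strand), the receptor kinase that organises the synapse, had the steepest fall of the 10 genes. Levels are given in CPM, read counts scaled to a common library total. Musk stood at 34.2, 36.0 and 33.4 CPM in the Non surgery libraries, at 2.70, 2.43 and 3.39 in the Luc libraries and at 3.87, 3.50 and 3.35 in the PC2 libraries. Both operated groups were far below the unoperated one, and their own ranges overlapped. The fall was 12.2-fold in Luc (log2 fold change -3.60 ± 0.10 SE, edgeR adjusted p = 1.38e-14) and 9.65-fold in PC2 (-3.27 ± 0.098, 2.85e-14) against Non surgery, and 4.99-fold and 4.57-fold relative to fast muscle transcripts. Between PC2 and Luc the log2 difference was 0.33 ± 0.14, with an adjusted p of 0.0754 in edgeR's test, and without Luc replicate 3 it was 0.48 with an adjusted p of 0.0252.

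Dok7 (chromosome 5, 35056766 to 35087839, plus strand), which binds MuSK from inside the fibre, followed with 17.8, 18.8 and 19.6 CPM in Non surgery, 4.72, 3.80 and 3.88 in Luc and 4.24, 5.42 and 4.30 in PC2. The unoperated libraries stood clear above both operated groups, which overlapped each other. Dok7 fell 4.53-fold in Luc (-2.18 ± 0.11, edgeR adjusted p = 4.2e-11) and 4.02-fold in PC2 (-2.01 ± 0.11, 9.09e-11), and 1.86-fold and 1.91-fold relative to fast muscle transcripts. The log2 difference of PC2 from Luc was 0.17 ± 0.14 (edgeR adjusted p = 0.359), and its sign reversed to -0.037 relative to fast muscle transcripts.

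Lrp4 (chromosome 2, 91457511 to 91513779, plus strand), the agrin receptor, went the other way. Its CPM were 47.0, 51.0 and 47.8 in Non surgery, 62.0, 57.3 and 63.7 in Luc, and 49.0, 51.6 and 51.0 in PC2. The Luc libraries were the highest, and PC2 libraries fell within or just above the Non surgery range. Lrp4 rose 1.26-fold in Luc against Non surgery (0.33 ± 0.051, edgeR adjusted p = 3.39e-05) and fell 1.21-fold in PC2 against Luc (-0.27 ± 0.050, adjusted p = 0.000571). PC2 and Non surgery differed by 0.06 ± 0.051 (edgeR adjusted p = 0.348), a difference that passed when libraries were scaled by their totals alone (0.22, 0.00173). Relative to fast muscle transcripts Lrp4 was 3.06-fold higher in Luc (1.61, edgeR adjusted p = 9.8e-15) and 2.20-fold higher in PC2 (1.13, 1.12e-12) than in Non surgery. LRP4 also serves in bone, where it holds the Wnt inhibitor sclerostin, and all 13 osteoblast and osteocyte markers rose in Luc, with a median log2 fold change of 1.55 and a summed level of 7115 to 7719 CPM in Non surgery, 25130 to 25690 in Luc, then 29510 to 29770 in PC2. Between PC2 and Luc 7 of these markers rose and 5 fell, among the latter Sost (-0.88), which encodes sclerostin, Mepe (-0.80) and Dmp1 (-0.73). On the fast muscle scale 5 rose and 6 fell in that comparison, where 4.59% of all genes rose and 45.4% fell. The part of bone cells in the Lrp4 values was not tested.

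Rapsn (chromosome 2, 91035620 to 91045729, plus strand), which tethers the receptors, fell 1.37-fold in Luc against Non surgery (-0.46 ± 0.12, edgeR adjusted p = 0.00265) but was higher by 0.83 relative to fast muscle transcripts. The libraries read 7.13, 7.41 and 7.80 CPM in Non surgery, 5.66, 5.33 and 5.27 in Luc, and 7.01, 5.83 and 6.76 in PC2. The 3 groups stood in separate ranges, PC2 between the others. PC2 differed from Luc by 0.27 ± 0.12 (edgeR adjusted p = 0.0833; without PC2 replicate 2, 0.35 and 0.0483) and from Non surgery by -0.19 ± 0.11 (0.151).

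The 4 receptor subunits fell in both operated groups under TMM scaling, and relative to fast muscle transcripts Chrnb1 was higher and Chrne did not pass. Chrnd (chromosome 1, 87190607 to 87200070, plus strand), the delta subunit, was the least abundant of the 10 genes per exon length, with 30, 36 and 26 counts in Non surgery, 4, 4 and 5 in Luc and 9, 15 and 5 in PC2. In CPM these were 1.80, 2.07 and 1.56, then 0.208, 0.211 and 0.269, then 0.471, 0.760 and 0.262. The unoperated libraries were well above the rest, and the lowest PC2 library lay just below the highest Luc library. Chrnd fell 7.71-fold in Luc (-2.95 ± 0.38, edgeR adjusted p = 4.49e-06) and 3.59-fold in PC2 (-1.84 ± 0.33, 0.000119) against Non surgery, and 3.20-fold and 1.71-fold relative to fast muscle transcripts. Its PC2 against Luc value, 1.10 ± 0.47, had an edgeR adjusted p of 0.0821. That value rested on single libraries, since it was 1.41 with an adjusted p of 0.0335 without PC2 replicate 3 and 0.67 with 0.378 without PC2 replicate 2.

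Chrna1 (chromosome 2, 73563215 to 73580338, minus strand) encodes the alpha subunit, which carries the acetylcholine binding site. It read 6.29, 5.69 and 4.98 CPM in Non surgery, 1.66, 1.53 and 0.807 in Luc, and 1.67, 1.88 and 1.57 in PC2. The operated groups overlapped each other far below the unoperated libraries. Chrna1 fell 4.21-fold in Luc (-2.07 ± 0.22, edgeR adjusted p = 3.43e-07) and 3.30-fold in PC2 (-1.72 ± 0.21, 1.77e-06), and 1.73-fold and 1.57-fold relative to fast muscle transcripts. PC2 differed from Luc by 0.35 ± 0.25 (edgeR adjusted p = 0.31).

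Chrne (chromosome 11, 70614883 to 70619216, minus strand) encodes the epsilon subunit that replaces gamma in the adult receptor. Its CPM were 4.43, 4.595 and 3.96 in Non surgery, 1.45, 1.11 and 1.88 in Luc, and 1.88, 1.37 and 2.25 in PC2. Again the 2 operated groups overlapped and the unoperated one stood apart. Chrne fell 2.92-fold in Luc (-1.55 ± 0.22, edgeR adjusted p = 1.35e-05) and 2.36-fold in PC2 (-1.24 ± 0.21, 8.37e-05), with a log2 difference of 0.31 ± 0.25 between PC2 and Luc (0.365). Both falls shrank to values that did not pass relative to fast muscle transcripts (-0.26, adjusted p = 0.269, and -0.16, 0.472).

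Chrng (chromosome 1, 87204657 to 87212694, plus strand), the gamma subunit of fetal and denervated muscle, was close to absent and was not tested. It had 0, 2 and 2 counts in Non surgery, 0, 0 and 2 in Luc, and 1, 1 and 1 in PC2, beside 21 to 80 counts of Chrne per library. Gamma made up between 0% and 5.41% of the gamma and epsilon counts of a library. These counts were not scaled to exon length, which is 4163 bases for Chrng and 1690 for Chrne. Per exon length, epsilon was 43.1-fold gamma in Luc replicate 3. The highest share, in Luc replicate 3, had an exact (Clopper-Pearson) 95% interval of 0.66% to 18.2%, and a share of 0 in Luc replicate 2 allowed up to 16.1%; these intervals cover counting error only. A switch from epsilon to gamma below these bounds was not detectable at this depth.

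Chrnb1 (chromosome 11, 69784036 to 69795943, minus strand), the beta subunit, read 17.7, 17.6 and 18.7 CPM in Non surgery, 8.57, 9.50 and 9.69 in Luc, and 11.98, 12.4 and 15.5 in PC2. The 3 groups did not overlap, with PC2 in the middle. Chrnb1 fell 1.94-fold in Luc against Non surgery (-0.96 ± 0.099, edgeR adjusted p = 3.07e-07), although it was higher by 0.33 relative to fast muscle transcripts. It rose 1.44-fold in PC2 against Luc (0.52 ± 0.10, edgeR adjusted p = 0.000795), on the fast muscle scale too (0.31, 0.0196). Against Non surgery it fell 1.35-fold in PC2 (-0.44 ± 0.094, edgeR adjusted p = 0.000742) but was higher by 0.64 on that scale.

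Ache (chromosome 5, 137287519 to 137294466, plus strand), acetylcholinesterase, was the most abundant of the 10 genes per exon length in all 3 groups. Its CPM were 125, 136 and 127 in Non surgery, 73.3, 72.9 and 77.6 in Luc, and 86.0, 84.6 and 83.0 in PC2. The groups formed 3 separate bands. Ache fell 1.73-fold in Luc against Non surgery (-0.79 ± 0.043, edgeR adjusted p = 6.29e-11), but relative to fast muscle transcripts it was higher by 0.49. It rose 1.13-fold in PC2 against Luc (0.18 ± 0.043, edgeR adjusted p = 0.00371), and relative to fast muscle transcripts the difference was -0.027 with an adjusted p of 0.633. PC2 was 1.53-fold lower than Non surgery (-0.61 ± 0.043, edgeR adjusted p = 1.79e-09) and higher by 0.47 on the fast muscle scale. Red cell precursors also make this enzyme, and all 11 erythroid markers fell in Luc, with a median of -0.69. Their summed level was 24730 to 26510 CPM in Non surgery, 13800 to 16150 in Luc, then 14970 to 15310 in PC2. Relative to fast muscle transcripts all 11 were higher in Luc, as were 91.3% of all genes. The part of red cell precursors in the Ache values was not tested. A lincRNA on the opposite strand, Gm42456, covers 2.12% of the Ache exon bases.

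Colq (chromosome 14, 31523082 to 31591343, minus strand), the collagen tail of the enzyme, gave the weakest call. It read 3.05, 2.87 and 4.08 CPM in Non surgery, 2.49, 2.32 and 2.21 in Luc, and 2.62, 3.14 and 2.62 in PC2. Luc lay below both other groups, which overlapped. Colq fell 1.42-fold in Luc against Non surgery (-0.51 ± 0.19, edgeR adjusted p = 0.0298) but was higher by 0.77 relative to fast muscle transcripts. The call was lost without Non surgery replicate 3 (-0.34, edgeR adjusted p = 0.156), Luc replicate 2 (-0.51, 0.0636) or Luc replicate 3 (-0.47, 0.0739), with DESeq2's Wald test (-0.53, 0.0591) and with library totals alone (-0.35, 0.122). PC2 differed by 0.25 ± 0.19 from Luc (edgeR adjusted p = 0.326) and by -0.25 ± 0.18 from Non surgery (0.244). Exons of Gm49387 on the same strand cover 5.23% of the Colq exon bases.

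Between PC2 and Luc, Chrnb1 and Ache rose, Lrp4 fell and 7 genes did not pass, where 34.7% of all genes tested passed, 16.1% higher and 18.6% lower. Thus 3 of 10 is a share near that of all genes. The PC2 libraries lay wholly above the Luc libraries for Chrnb1, Ache, Colq and Rapsn and wholly below for Lrp4, against 23.3% and 24.7% of all genes. The median log2 difference of the 10 genes was 0.29, and that of all genes 0.008. Chrnd alone had a fitted difference over 2-fold, and it did not pass; 1.3% of all genes passed with a 2-fold rise and 2% with a 2-fold fall. The Ache rise was not seen relative to fast muscle transcripts, as given above.

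Against Non surgery, 7 of the 10 genes fell in PC2, while Lrp4, Colq and Rapsn did not pass, where 62.7% of all genes passed, 31.5% higher and 31.2% lower. Musk, Chrnd, Dok7, Chrna1 and Chrne again fell at least 2-fold, against 6.53% of all genes (9.83% rose 2-fold). The PC2 libraries lay wholly below for 8 genes, Rapsn included, against 32.5%, and wholly above for 0, against 33.5%. On the fast muscle scale Chrnb1, Ache, Colq, Rapsn and Lrp4 were higher than in Non surgery, as were 87.7% of all genes. The median of the 10 genes was -0.93, and that of all genes 0.010. This comparison shares the Non surgery libraries with the Luc comparison and the PC2 libraries with the PC2 against Luc comparison, so the 3 are not independent.

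**Figure D2:**
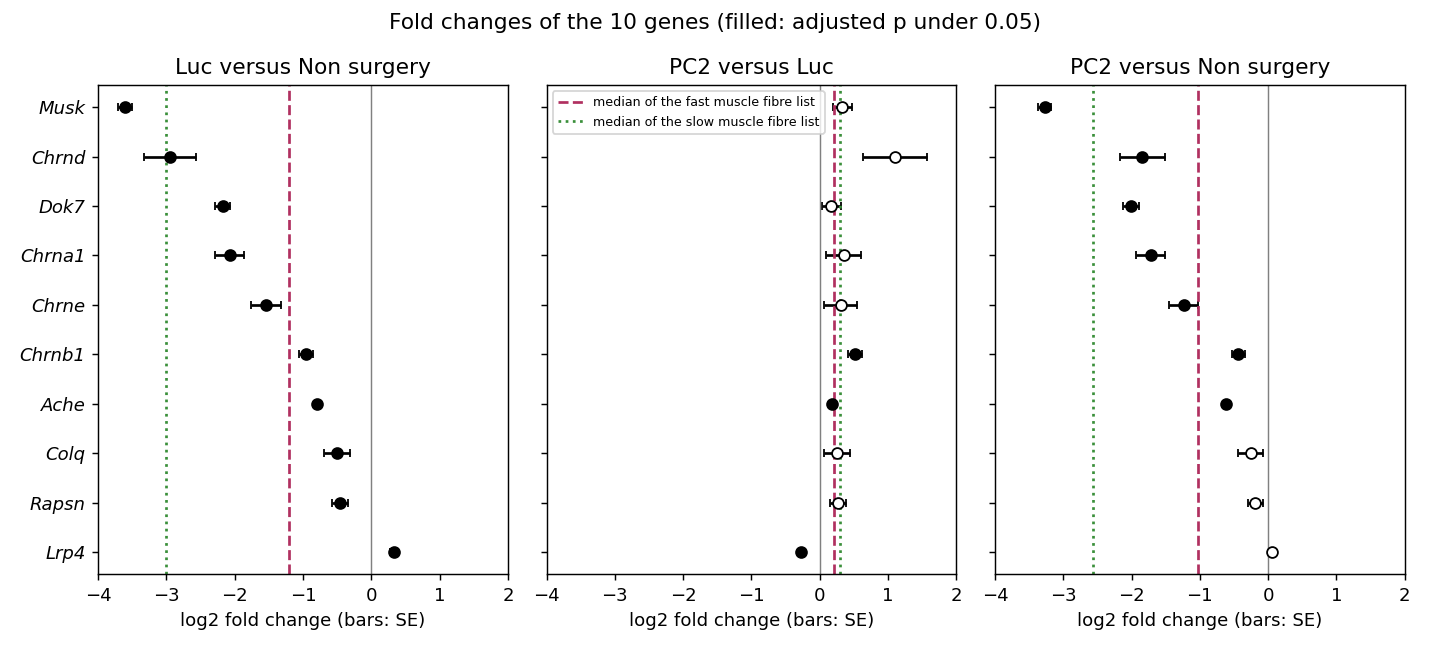
Log2 fold change with its SE for each gene in the 3 comparisons, filled where the adjusted p was under 0.05, with the medians of the fast and slow muscle fibre lists as lines. Musk, at -3.60 in Luc against Non surgery, lies below both lines (-1.20 and -3.0); Chrnb1, Ache, Colq and Rapsn lie above the fast fibre line, and relative to fast fibre transcripts these 4 were higher.

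Levels of different genes were compared per kilobase of merged exons. In Non surgery joints Ache led with 28.0 CPM per kb, then Musk with 9.14 and Chrnb1 with 7.10. Lrp4 (4.63), Dok7 (4.39) and Rapsn (4.13) formed a middle group whose neighbours overlapped between libraries, and Chrne (2.56), Chrna1 (1.29), Colq (0.877) and Chrnd (0.550) followed in that order without overlap. In Luc joints Musk, at 0.752 CPM per kb, had moved from the second to the seventh place, and overlapped Chrne (0.877) above it and Colq (0.616) below it. Lrp4 (5.81) took the second place behind Ache (16.1), and Chrnd (0.070) stayed last. In PC2 joints Musk also stood seventh (0.947), Ache first (18.3) and Chrnd last (0.151), and Chrnb1 (5.25) overlapped Lrp4 (4.81). With the longest transcript as the length, Lrp4 and Dok7 swapped places in Non surgery, and Chrnb1 and Lrp4 in PC2.

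**Figure D3:**
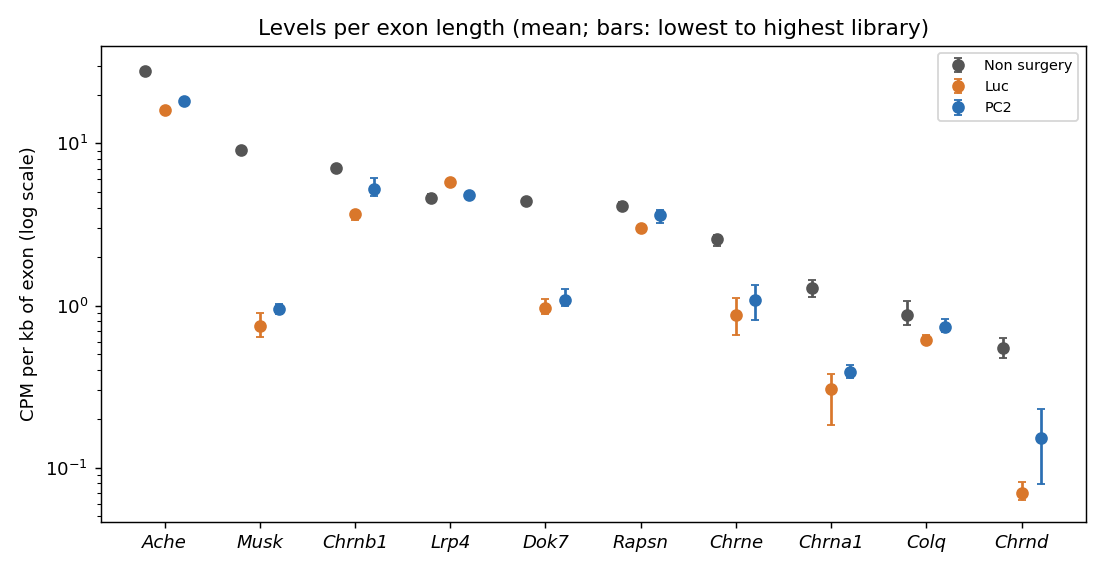
Mean level per kilobase of exon in each group on a log axis, with bars from the lowest to the highest library. Musk is second of the 10 genes in Non surgery (9.14 CPM per kb) and seventh in Luc (0.752) and PC2 (0.947).

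Muscle transcripts took a smaller share of the reads in operated joints. All 18 fast muscle fibre genes fell in Luc against Non surgery, with a median of -1.20, and the list summed to 81690 to 84440 CPM in Non surgery, 33760 to 34260 in Luc, then 39210 to 39350 in PC2. All 11 genes of the slow muscle fibre list, which includes the type IIa myosin Myh2, fell, with a median of -3.0. Their sums were 4875 to 4965, 1138 to 1161 and 1386 to 1408 CPM. Scaled by library totals alone 10 of the 11 passed. Relative to fast muscle transcripts 8 fell and 2 rose, where 2.16% of all genes fell and 91.3% rose. In PC2 against Luc 15 fast genes rose and 1 fell (median 0.21), and 6 slow genes rose and 2 fell (median 0.30). The fast muscle scale centres the fast list by construction. On it 4 slow genes rose and 4 fell in that comparison, where 4.59% of all genes rose and 45.4% fell. In such whole-joint RNA, fewer muscle cells and less RNA per muscle cell cannot be told apart. Chondrocyte and tenocyte markers rose at the same time, 11 of 11 (median 2.30) and 6 of 6 (median 1.80), and their part in the results was not tested.

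The 10 genes were also fitted with the summed counts of the fast fibre list as the library size. On this scale Musk was still 4.99-fold lower in Luc than in Non surgery (log2 -2.32 ± 0.11, edgeR adjusted p = 2.32e-12), Chrnd 3.20-fold (-1.68 ± 0.40, 0.000896), Dok7 1.86-fold (-0.89 ± 0.12, 1.98e-06) and Chrna1 1.73-fold (-0.79 ± 0.22, 0.00331). These 4 of 10 genes stood beside 2.16% of all genes that were lower on this scale, whose median over all genes was 1.31. Rapsn (0.83), Colq (0.77), Ache (0.49), Chrnb1 (0.33) and Lrp4 (1.61) were higher, as were 91.3% of all genes. As a ratio to the summed counts of the fast list, in CPM of that sum, Musk stood at 416.5 ± 10.4 in Non surgery, 83.5 ± 14.5 in Luc, then 91.0 ± 6.65 in PC2 (SD, n = 3). Chrne did not pass on this scale, as given above.

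Scaled to fast fibres, PC2 against Non surgery gave the same 4 genes lower, against 3.05% of all genes, and Lrp4, Rapsn, Colq, Chrnb1 and Ache higher, against 87.7%, with Musk at -2.19, Dok7 at -0.93, Chrnd at -0.77 (edgeR adjusted p = 0.0381) and Chrna1 at -0.65 (0.00909). Between PC2 and Luc, Chrnb1 was higher (0.31, edgeR adjusted p = 0.0196), as were 4.59% of all genes, and Lrp4 was lower (-0.48, 5.6e-07), as were 45.4%. In CPM of the slow fibre list's sum, Musk stood at 7026 ± 196 in Non surgery and 2477 ± 447 in Luc, 2.84-fold lower with no overlap, and in PC2 it was 2.75-fold lower, also with no overlap. Chrnd was 1.84-fold lower in Luc with no overlap, but in PC2 it was 1.03-fold lower with overlapping ranges (355 against 368). Chrna1 (1150 in Non surgery, 1160 in Luc) and Dok7 (3817 and 3600) overlapped on that scale. Chrne was 1.47-fold higher in Luc and 1.49-fold higher in PC2 without overlap, and Chrnb1, Ache, Colq, Rapsn and Lrp4 were higher in both without overlap. These slow fibre ratios were not tested, and they depend on which genes are summed. Tpm3 (393 CPM in Luc, -0.14 against Non surgery) and Atp2a2 (209, -0.35) fell least and made up much of the Luc mean sum of 1147 CPM. Myh7 (-5.16), Myh2 (-3.70), Tnnc1 (-3.66) and Myl3 (-3.64) fell further than Musk (-3.60), and the other genes of the list fell less.

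**Figure D4:**
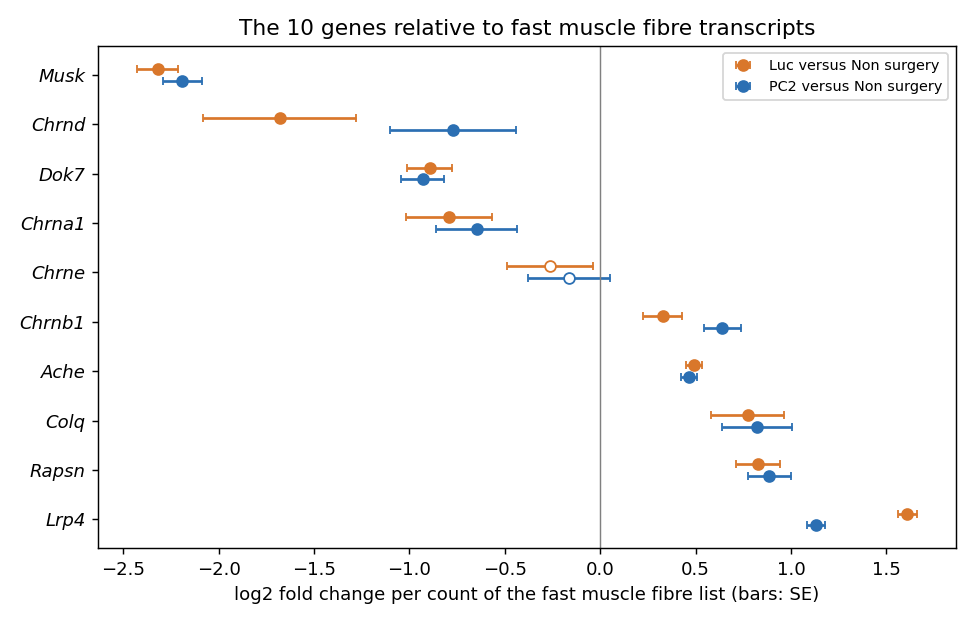
Log2 fold change of each gene with its SE when the summed counts of the fast muscle fibre list served as library size, for Luc and PC2 against Non surgery, filled where the adjusted p was under 0.05. Musk (-2.32 and -2.19), Chrnd, Dok7 and Chrna1 lie below 0, Chrne is open, and the other 5 genes lie above 0.

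By the distance of the 3 group means (log2 CPM, each gene centred on its own mean), the genes most like Musk were Lrrc52 (0.13), Ppara (0.17), Tnni1 (0.26), Fam107a (0.26) and Xirp1 (0.30). Lrrc52 stood at 6.39 CPM in unoperated joints, 0.245 with Luc and 0.378 with PC2. Those most like Chrna1 were Igkv4-55 (0.015), Timd4 (0.049), Cacna1s (0.051) and Pde4dip (0.055). These are distances over 3 pooled samples and carry no test.

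Agrin from the nerve and neuregulin act upstream of these genes. Of 13 tested genes of agrin and neuregulin signalling, 6 rose, 4 fell and 3 did not pass in Luc against Non surgery. Agrn, agrin itself, rose from 60.9 to 67.4 CPM (0.15 ± 0.040, edgeR adjusted p = 0.00492). The neuregulin receptor Erbb3 fell (-0.56) and Erbb2 rose (0.45), the ETS factor Etv5, active at synaptic nuclei, rose (0.49), and of the 2 parts of GABP, Gabpa rose (0.23) and Gabpb1 fell (-0.34). Relative to fast muscle transcripts all 13 were higher, as were 91.3% of all genes. Between PC2 and Luc, Dvl1 rose (0.21), Gabpa (-0.26) and Pak1 (-0.22) fell, and Agrn differed by -0.060 (edgeR adjusted p = 0.267). On the fast muscle scale none of the 13 rose and 7 fell, where 4.59% of all genes rose and 45.4% fell.

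The dystrophin and utrophin complex, which links the fibre's skeleton to its surface, split by member. Of 13 genes, 7 fell and 3 rose in Luc. Relative to fast muscle transcripts 3 fell and 10 rose, where 2.16% of all genes fell and 91.3% rose. Among the falls were Dtna (-1.55), the alpha-dystrobrevin that steadies receptor clusters, and Sgca (-1.48). Utrn, the utrophin of the synaptic membrane, rose from 107 to 123 CPM (0.20 ± 0.036, edgeR adjusted p = 0.000178). In PC2 it stood at 98.2 CPM. That was lower than in Luc (-0.32, edgeR adjusted p = 3.52e-06) and than in Non surgery (-0.13, 0.00617). The PC2 libraries had 6 of the 13 higher and 3 lower than Luc, with Dtna (0.44) and Sgca (0.44) higher and Sgcd (-1.0) lower. On the fast muscle scale 4 rose and 5 fell between PC2 and Luc, where 4.59% of all genes rose and 45.4% fell.

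Genes of the synaptic basal lamina, the matrix of the cleft, were mostly higher in Luc, with 9 of 13 risen and 2 fallen. None was lower under library totals alone or on the fast muscle scale, where 2.16% of all genes were lower. Col13a1, a transmembrane collagen of the junction, rose most (1.99), followed by Lama4 (1.23), Col25a1 (1.10) and Hspg2 (1.06), which encodes perlecan; these genes are also made by cartilage, vessels and other joint tissue. Relative to Luc, PC2 had 6 risen and 4 fallen, among them Col4a3 (1.74, from 0.584 to 1.96 CPM), Col4a4 (0.63), Col4a5 (0.47) and Col25a1 (-0.72). On the fast muscle scale 3 rose and 6 fell between PC2 and Luc, where 4.59% of all genes rose and 45.4% fell. A list of 6 genes whose loss causes myasthenic syndromes held genes of glycosylation and Slc25a1, the mitochondrial citrate carrier. All 6 rose in Luc, led by Slc25a1 (0.62), Gmppb (0.54), Gfpt1 (0.51) and Alg14 (0.38). Of these 6, only Slc25a1 passed in PC2 against Luc (0.44), so no glycosylation gene of the list did. On the fast muscle scale 1 of the 6 rose and 3 fell in that comparison, where 4.59% of all genes rose and 45.4% fell.

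Other genes marked for the nuclei under the synapse did not move as a block. Of 8 tested, 4 fell and 2 rose in Luc, with Kcnq5 (-1.25), Ufsp1 (-0.88) and Lrtm1 (-0.86) lower and Pdzrn4 (1.85) higher. Relative to fast muscle transcripts 7 were higher and none lower, where 91.3% of all genes were higher. With PC2 in place of Luc, Ufsp1 (0.43) and Kcnq5 (0.28) rose and Lrtm1 (-0.42) and Phldb2 (-0.38) fell. On the fast muscle scale none of the 8 rose and 5 fell in that comparison, where 4.59% of all genes rose and 45.4% fell. All 13 genes of muscle excitability and the triad, which carry the signal on from the synapse to calcium release, fell in Luc. The calcium channel Cacna1s (-1.82), the release channel Ryr1 (-1.65), Jph1 (-1.63) and the sodium channel Scn4a (-1.54) were lowest. On the fast muscle scale 6 rose and 5 fell, where 91.3% of all genes rose and 2.16% fell. Of the 13, 12 rose in PC2 against Luc, with the calcium buffer Casq1 (0.67), Cacnb1 (0.62), Stac3 (0.58) and Jph2 (0.50) highest. On the fast muscle scale 9 rose and 1 fell in that comparison, where 4.59% of all genes rose and 45.4% fell. Casq1 and Atp2a1 of this list also belong to the fast fibre list, so their own counts enter that scale.

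Genes known to change in muscle that loses its nerve gave no single direction. The list was not split by the direction known for each gene. Of 12 tested, 4 rose and 7 fell in Luc. Relative to fast muscle transcripts 7 rose and 3 fell, where 91.3% of all genes rose and 2.16% fell. Dach2 (-2.14) and the embryonic and perinatal myosins Myh3 (-1.97) and Myh8 (-1.86) fell. Against Luc, the PC2 libraries had more Sln, which restrains the calcium pump (2.22, from 1.002 to 4.71 CPM), and less Dach2 (-1.23) and Runx1 (-0.35). On the fast muscle scale 1 of the 12 rose and 5 fell between PC2 and Luc, where 4.59% of all genes rose and 45.4% fell.

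The cell bodies of motor neurons lie in the spinal cord and brainstem. Of 13 markers 4 passed the filter, with Nefh at 3.33, Syt2 at 1.6, Sv2a at 1.29 and Prph at 0.51 CPM in Non surgery. The others were too low to be tested, and Chat, Slc18a3, Mnx1 and Nefl had no count in any library. The list summed to 6.00 to 7.90 CPM in Non surgery, 5.86 to 7.53 in Luc, then 5.68 to 6.97 in PC2, ranges that overlapped. Syt2, a calcium sensor of the motor terminal, fell in Luc (-0.94, edgeR adjusted p = 0.0112). Relative to fast muscle transcripts none of the 4 was lower and 3 were higher, where 91.3% of all genes were higher. In PC2 against Luc the edgeR adjusted p of the 4 markers lay between 0.297 and 0.839.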

How the data were processed

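RNA sequencing of 9 libraries, 3 technical repeats of 1 RNA mixture per group, gave raw read counts per Ensembl gene ID as the authors deposited them. RNA was taken with TRIzol and libraries used NEBNext Ultra chemistry, per the labels' protocols. Tools named without versions were HISAT2, HTSeq and DESeq2, with mm10 as the build, per the submitters' processing notes; the annotation release, strand setting and read filters are not given in the sources used here. Without a known strand setting, reads of overlapping genes on opposite strands cannot be told apart. The 5 summary lines of HTSeq stayed out of all sums; reads outside genes were 7.29% to 7.37% in Non surgery, 8.89% to 9.25% in Luc and 8.05% to 8.17% in PC2.

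Symbols, positions and exon lengths came from GENCODE M21 (GRCm38), which held 53274 IDs; 105 had no entry. All 9 libraries entered 1 edgeR 4.0.16 quasi-likelihood fit (R 4.3.3) with TMM factors and filterByExpr (minimum count 10). Tests were two-sided, with Benjamini-Hochberg adjustment over all 17478 genes, and a gene rose or fell at an adjusted p under 0.05. SE values are the absolute log2 fold change divided by the root of F. Levels are edgeR's CPM (read counts scaled to a common library total) on TMM-scaled library sizes. The fit was tested on simulated data. Pairs of libraries in a group differed beyond counting noise (chi-square per degree of freedom 3.94 to 8.67), so none was a second copy. The labels call the libraries technical repeats, so replicate numbers pair nothing; deviations of same-numbered libraries correlated between -0.027 and 0.057.

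The members, gene lists and alternatives (DESeq2 1.42.0, other scalings, no filter, libraries left out, a block) were chosen with earlier results of these data known. Named were the members, Chrng, Agrn, up to 4 of the most changed genes per list in Luc against Non surgery and in PC2 against Luc, and the 5 genes nearest to Musk and to Chrna1 (pseudocount 0.5, a mean of at least 2 CPM in 1 group); Utrn was chosen after its values were seen. A planned permutation test of the Chrne to Chrng ratio was not possible where Chrng had 0 counts. A few genes chosen by the naming rule are not reported here.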

Additional observations from a re-analysis of the deposited data

How the results depend on the processing

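Relative to fast muscle fibre counts, the log2 values that reversed were, in Luc against Non surgery, Ache 0.49, Chrnb1 0.33, Colq 0.77 and Rapsn 0.83; in PC2 against Non surgery Ache 0.47, Chrnb1 0.64, Colq 0.82 and Rapsn 0.89; and in PC2 against Luc Ache -0.027 and Dok7 -0.037. On that scale 5 genes were higher and 4 lower in Luc against Non surgery, 5 higher and 4 lower in PC2 against Non surgery, and 1 higher (Chrnb1) and 1 lower (Lrp4) in PC2 against Luc, where 91.3%, 87.7% and 4.59% of all genes were higher and 2.16%, 3.05% and 45.4% lower; the scale's own construction moves the median of all genes to 1.31, 1.09 and -0.20. Library totals alone moved that median to 0.19 in Luc and 0.17 in PC2 against Non surgery, the share of calls that were higher from 52.8% to 70.1% and from 50.3% to 66.9%, and the genes higher in PC2 against Non surgery to 1 (Lrp4). With the replicate block 10, 3 and 7 of the 10 genes passed in Luc against Non surgery, PC2 against Luc and PC2 against Non surgery, as without it, and 10327, 6192 and 11019 of all genes; it changed no call of the 10 genes. Leaving out 1 library, 2 to 3 genes were higher in PC2 against Luc. Colq in Luc against Non surgery was the 1 call among the 10 genes that DESeq2 lost in the 3 comparisons. Chrnd failed the count filter when PC2 and Luc were fitted alone. With the longest transcript as length, Non surgery levels per kb were 35.1 for Ache and 10.1 for Musk. Depth limits Chrnd, with 4 to 5 counts per Luc library, and Chrng.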

Other observations

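Schwann cells wrap the motor axon and cap its ending. Of their 11 markers, 5 rose and 3 fell in Luc against Non surgery. Relative to fast muscle transcripts all 11 were higher, as were 91.3% of all genes. Gap43 (2.34) and Ngfr (1.67), which Schwann cells raise after nerve injury, rose along with S100b (1.34) and Pmp22 (1.03). In PC2 against Luc 6 rose and none fell, among them Ncmap (1.08), the factor Sox10 (0.79) and S100b (0.61). On the fast muscle scale 4 rose and 1 fell in that comparison, where 4.59% of all genes rose and 45.4% fell. The list summed to 154 to 170 CPM in Non surgery, 220.0 to 222.5 in Luc, then 269 to 285 in PC2, and the 3 ranges did not overlap. Pmp22 alone went from 55.3 CPM in Non surgery to 113 in Luc and 147 in PC2, beside list means of 162, 221 and 276, so nearly all of the Luc difference of the sum lay in that 1 gene. Several of these genes are also made by other joint cells, and their part in the values was not tested.

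Muscle stem cell genes moved singly. Of 6 tested, Megf10 rose (1.73) and Calcr (-0.87) and Cdh15 (-0.29) fell in Luc against Non surgery. Relative to fast muscle transcripts 4 were higher and none lower, where 91.3% of all genes were higher. In PC2 against Luc, Megf10 (0.50) and Chodl (0.38) rose, and Calcr (-0.82) and Cdh15 (-0.31) fell. On the fast muscle scale 1 of the 6 rose and 3 fell, where 4.59% of all genes rose and 45.4% fell.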
